A study of Homo sapiens with 30 samples.

Results

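KLK2, KLK3 and KLK4, the prostate kallikreins, were followed through 30 RNA-seq libraries of LNCaP, a human prostate cancer cell line. They were the 3 genes with these symbols among 26443 genes with values in every library, and all 3 passed the filter on low values in each experiment. The libraries formed 10 groups of 3 in 3 experiments, and each experiment had its own control. In the first, cells were infected for 5 days with the control shRNA vector pLKO or with shUSP7, shBUB3 or shFOXA1, each an shRNA against the gene named. In the second, cells were transfected for 4 days with a control siRNA (siCtrl) or an siRNA against EZH2. In the third, cells were infected for 5 days with the control vector pGIPZ, or with an shRNA labelled shFoxA1 alone, with HA-tagged wild-type FOXA1 (shFoxA1 WT) or with an HA-tagged K295A mutant of FOXA1 (shFoxA1 K295A). The time is not stated for replicate 3 of shFoxA1 K295A. The shared background was LNCaP in RPMI with serum, 1 shRNA or siRNA name is given per target, and no androgen treatment is named. Whether replicates are separate cultures is not stated, and p-values reflect only how far these libraries vary, which may be technical.

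Kallikreins are secreted serine proteases made from a cluster of neighbouring genes. KLK3 encodes prostate-specific antigen (PSA), which liquefies semen by cleaving semenogelins and is measured in blood as a marker of prostate cancer. KLK2 encodes a trypsin-like protease that can activate the PSA precursor, and KLK4 encodes a trypsin-like protease that is also needed for tooth enamel. In luminal prostate cells androgens induce KLK2 and KLK3, and FOXA1 is a pioneer transcription factor that opens chromatin. USP7 is a deubiquitinase, BUB3 is a spindle checkpoint protein, and EZH2 is the methyltransferase of the polycomb complex PRC2. The series concerns how polycomb and a BUB3/USP7 deubiquitinase complex set FOXA1 protein stability, and the kallikreins are read here as mRNA.

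The members lay side by side on chromosome 19 within 55.8 kb. In GENCODE 29 (build GRCh38), KLK3 occupied 50854915 to 50860764 and KLK2 50861568 to 50880567, both on the plus strand. KLK4 followed on the minus strand, at 50906352 to 50910738, with the transcribed pseudogene KLKP1 between KLK2 and KLK4 at 50882096 to 50896398. No other annotated gene overlapped a member on either strand. KLK2 and KLK3 are close relatives, but exact stretches of 50 bases shared by both were few: 11 of 1414 such stretches of the KLK3-201 transcript, or 0.778%, also occurred in KLK2 transcripts. KLK4-201 shared none with KLK2, KLK3, KLKP1 or KLK15.

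Promoters are shown because KLK2 and KLK3 moved together in most comparisons and KLK4 did not. Whether promoter likeness has a part in this was not tested. The windows hold the 250 bases before a RefSeq transcript start (GRCh38.p14), written 5′ to 3′ on the strand of the gene. They lie at chr19:50854665-50854914 for KLK3, chr19:50873189-50873438 for KLK2 and chr19:50910739-50910988 for KLK4. The KLK2 window lies inside the GENCODE span of that gene, which begins at 50861568, so the annotations place its start differently. A second RefSeq start of KLK4, at 50911395, lies outside its GENCODE span, which ends at 50910738. Capitals mark the longest run that the KLK3 and KLK2 windows share.
KLK3: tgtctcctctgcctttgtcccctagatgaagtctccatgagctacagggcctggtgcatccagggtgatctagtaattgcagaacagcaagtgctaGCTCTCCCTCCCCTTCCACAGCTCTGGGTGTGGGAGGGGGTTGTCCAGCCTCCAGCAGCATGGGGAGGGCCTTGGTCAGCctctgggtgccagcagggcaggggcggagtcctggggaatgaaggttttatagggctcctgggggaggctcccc
KLK2: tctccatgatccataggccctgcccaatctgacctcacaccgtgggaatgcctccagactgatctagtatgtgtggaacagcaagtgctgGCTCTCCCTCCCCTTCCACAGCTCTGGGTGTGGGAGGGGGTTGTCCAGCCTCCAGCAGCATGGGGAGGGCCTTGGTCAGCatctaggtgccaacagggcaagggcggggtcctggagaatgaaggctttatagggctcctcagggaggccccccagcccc
KLK4: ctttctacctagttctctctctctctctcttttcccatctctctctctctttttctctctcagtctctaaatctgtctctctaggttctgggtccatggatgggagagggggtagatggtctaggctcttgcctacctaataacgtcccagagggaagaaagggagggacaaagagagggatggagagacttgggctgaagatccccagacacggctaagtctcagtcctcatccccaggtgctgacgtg
The run was 80 bases long and lay at positions -154 to -75 from the start in KLK3 and -160 to -81 in KLK2. Over the aligned windows, 205 of 259 columns were identical between KLK3 and KLK2, or 79.2%. The KLK4 window was 45.2% identical to that of KLK3 and 46.1% to that of KLK2, and the window of a second RefSeq KLK4 start, at position 50911395, was 47.6% and 47.5% identical to them.

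Both strands of the windows were searched for AGAACA, the hexamer of androgen response elements, for the full androgen response element, for the forkhead motif TGTTTAC and for TATAAA, the TATA box. The KLK3 window held AGAACA at positions -170 to -165 from the start, as did 12.4% of 35116 promoter windows of this length. There the KLK3 window reads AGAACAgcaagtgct and the aligned KLK2 stretch reads GGAACAgcaagtgct, with capitals for the hexamer and the single substitution A1G counted from its first base. KLK3 and KLK2 both held TATAAA on the opposite strand, at -28 to -23 and -34 to -29, a motif found in 10.7% of windows. Neither KLK4 window held any of these motifs, and no member held TGTTTAC, which occurred in 2.98% of windows. No search allowed a mismatch. The full element in this exact form was found in 1 of 35116 windows, or 0.00285%, and in none of these. A form this rare would be missed in nearly any window. Its absence therefore cannot show whether these windows hold an element with mismatches, which was not tested. A match describes letters, not binding, and enhancers were not examined.

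The values are FPKM for the first 2 experiments and RPKM for the third, both read counts per length and depth. Whether both tables were made by the same program is not stated, so levels are compared only within a table. Library sums of FPKM ran from 235344 to 367614, and the largest belonged to shBUB3 replicate 3, which stood apart from the 235344 to 306578 of the rest of its experiment. Pearson correlations within groups were at least 0.992. Targeted genes were lower in their own knockdown on the log2 scale: USP7 fell by 2.02, BUB3 by 2.91, EZH2 by 1.18, and FOXA1 by 0.96 after shFOXA1 and by 0.67 after shFoxA1. Targets also fell in other knockdowns of the first experiment: EZH2 by 0.90 after shUSP7, 1.29 after shBUB3 and 0.98 after shFOXA1, and BUB3 by 1.17 after shFOXA1. FOXA1 mRNA was 152 RPKM in shFoxA1 WT and 151 RPKM in shFoxA1 K295A against 132 RPKM in pGIPZ, and the row does not separate the construct from the cell's own gene. The luminal markers KRT8, KRT18, HOXB13 and FOLH1 were expressed in every library, KRT18 lowest at 52.2. The basal markers KRT5 and TP63, the immune markers PTPRC and CD3E and the endothelial markers PECAM1 and CDH5 were at most 0.276. Other markers on the same lists were not silent: CD68 (immune) ran from 2.23 to 34.7 and COL1A1 (fibroblast) from 1.44 to 12.3 over the 30 libraries, while KRT14 (basal) reached 7.38 and VWF (endothelial) 4.57.

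KLK3 was among the most abundant mRNAs of every control. Per length, it ranked 18 of 26443 genes in pLKO, 5 in siCtrl and 4 in pGIPZ. Its mean was 1088 FPKM ± 3.16 (SD, n = 3) in pLKO, 1313 FPKM ± 60.4 in siCtrl and 1436 RPKM ± 8.09 in pGIPZ. KLK2 and KLK4 were lower in each control, at 112 FPKM ± 0.679 and 89.6 FPKM ± 2.07 in pLKO. In siCtrl the levels were 79.2 FPKM ± 8.37 for KLK2 and 46.5 FPKM ± 1.24 for KLK4, and in pGIPZ they were 105 RPKM ± 1.40 and 113 RPKM ± 6.70. KLK3 thus stood 9.74 times above KLK2 and 12.1 times above KLK4 in pLKO as a mean of within-library ratios.

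**Figure D1:**
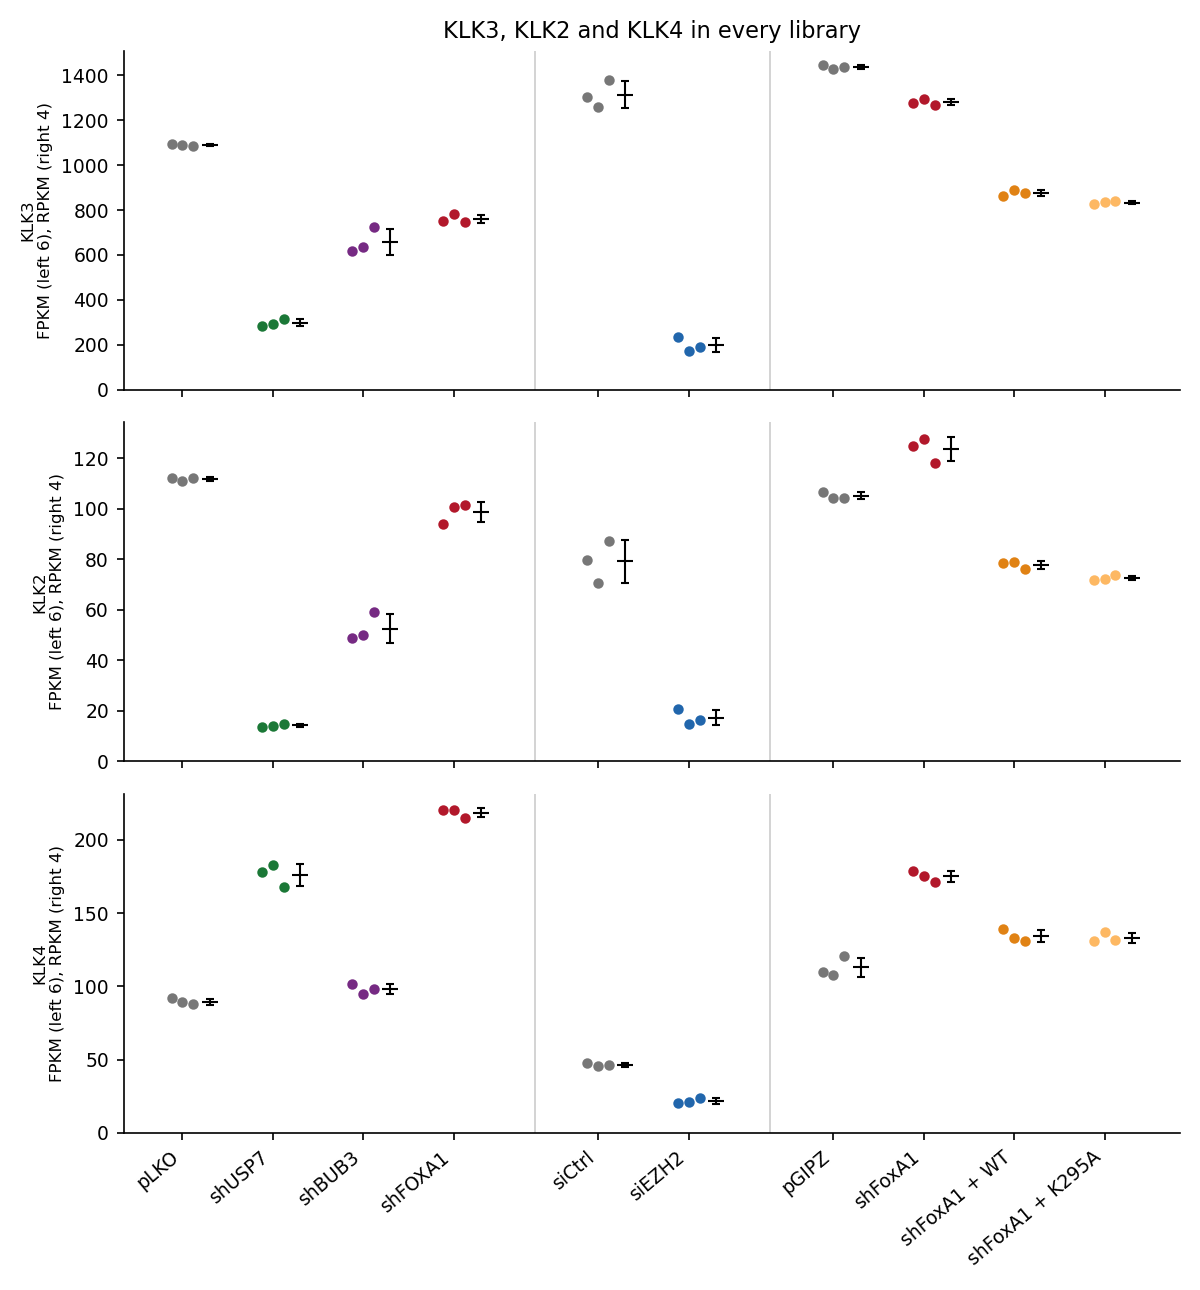
Level of KLK3, KLK2 and KLK4 (FPKM for the 6 groups on the left, RPKM for the 4 on the right) in each library; points are the 3 libraries of a group and the bar beside them is the mean ± SD. KLK3 and KLK2 are lowest in shUSP7 and siEZH2, while KLK4 is highest in shFOXA1 within its experiment.

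USP7 knockdown split the members: KLK2 and KLK3 fell and KLK4 rose. KLK2 went from 112, 111 and 112 FPKM in pLKO to 13.7, 14.2 and 15.0 FPKM, a mean 7.82 times lower. The log2 fold change of FPKM + 1 was -2.88 ± 0.0696 (SE; limma, adjusted p = 8.4e-11), the 31st lowest of 12524 genes tested. KLK3 went from 1092, 1088 and 1086 FPKM to 285, 294.8 and 317 FPKM (-1.86 ± 0.0776, limma adjusted p = 3.1e-09). KLK4 moved the other way, from 91.9, 89.3 and 87.7 FPKM to 178, 183 and 168 FPKM. Its log2 change was 0.97 ± 0.0514 (limma, adjusted p = 2.3e-08), and for each member the 3 knockdown libraries lay wholly outside the 3 controls. In this comparison 33.0% of all genes tested were called lower and 29.1% higher, so a call on its own was common. The luminal markers KRT8, KRT18, HOXB13 and FOLH1 summed to 619 to 643 FPKM in shUSP7 against 725 to 759 FPKM in pLKO, and the 3 endothelial markers to 4.28 to 4.62 FPKM against 1.70 to 1.77 FPKM; their part in the result was not tested. In bulk RNA, fewer cells that make a transcript and less of it per cell cannot be told apart.

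BUB3 knockdown lowered KLK2 and KLK3 less than USP7 knockdown did. KLK2 was 48.8, 49.9 and 59.2 FPKM (log2 change -1.08 ± 0.0696, limma adjusted p = 1.0e-07), about 2.12 times below pLKO in the mean. KLK3 was 617, 634 and 722 FPKM (-0.73 ± 0.0776, adjusted p = 7.2e-06). The highest value of both belonged to replicate 3, the library that stood apart, and without it the log2 changes were -1.16 and -0.80. KLK4 was 102, 94.5 and 98.2 FPKM, just above all 3 pLKO libraries. Its log2 change of 0.13 ± 0.0514 passed narrowly (limma, adjusted p = 0.0442), missed the threshold with median-ratio scaling (0.07, adjusted p = 0.273) and turned to -0.07 when values were scaled to the library sum. It also missed in 4 of the 6 fits with 1 library left out, those without pLKO replicate 1, 2 or 3 or shBUB3 replicate 1 (adjusted p from 0.0614 to 0.144). Among all genes 32.0% were called lower and 33.3% higher. The luminal markers KRT8, KRT18, HOXB13 and FOLH1 summed to 742 to 919 FPKM in shBUB3 against 725 to 759 FPKM in pLKO. The 3 endothelial markers summed to 2.91 to 3.46 FPKM against 1.70 to 1.77 FPKM. What part these markers have in the result was not tested. Set directly against shBUB3, shUSP7 had lower KLK2 (-1.81) and KLK3 (-1.13) and higher KLK4 (0.84), in a comparison where 65.2% of genes were called.

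FOXA1 knockdown in the same experiment gave the highest KLK4 of any group in it. KLK4 was 220.5, 220.2 and 215 FPKM, 2.44 times the pLKO mean (log2 change 1.28 ± 0.0514, limma adjusted p = 1.4e-09), the 283rd highest change of 12524. KLK3 fell to 751, 783 and 747 FPKM (-0.52 ± 0.0776, limma adjusted p = 9.1e-05). By level it ranked 13 of 26443 genes, against 18 in pLKO, so its rank rose although its value fell. With median-ratio scaling its log2 change was -0.34, and with scaling to the library sum it was -0.29. KLK2 stayed closest to its control, at 94.0, 101 and 101 FPKM against 111 to 112. Its log2 change of -0.18 ± 0.0696 passed narrowly (limma, adjusted p = 0.0379) but was -0.00 with median-ratio scaling and turned to 0.05 with scaling to the library sum, and it missed the threshold when any 1 of the 6 libraries was left out. In this comparison 45.1% of genes were called lower and 25.2% higher, and median-ratio scaling moved the median gene up by 0.144. The summed luminal markers were 570 to 608 FPKM, below the 725 to 759 FPKM of pLKO. The 4 basal markers summed to 3.81 to 4.70 FPKM against 0.925 to 1.35 FPKM, with KRT5 and TP63 at most 0.215 in any library. The 3 endothelial markers summed to 0.110 to 0.248 FPKM against 1.70 to 1.77 FPKM. The part of these marker lists in the result was not tested.

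The order of the groups therefore differed by member. For both KLK2 and KLK3 it ran from pLKO through shFOXA1 and shBUB3 down to shUSP7, and for KLK4 it ran from shFOXA1 through shUSP7 and shBUB3 down to pLKO. No 2 neighbouring groups overlapped in either order of these FPKM values, and the share of all genes separated this way is not given here. With scaling to the library sum, KLK2 in shFOXA1 against pLKO turned to 0.05. KLK4 in shBUB3 against pLKO turned to -0.07 with that scaling, so these steps of the orders depend on it. Against shUSP7, shFOXA1 was higher for KLK2 (2.70), KLK3 (1.35) and KLK4 (0.31), where 70.9% of genes were called. KLK2 ranked 15th highest of 12524 genes in that contrast. Against shBUB3, shFOXA1 was higher for KLK2 (0.90) and KLK4 (1.15), where 73.4% were called. KLK3 differed there by 0.21 (limma, adjusted p = 0.0275), which missed the threshold in a fit of only the shFOXA1 and shBUB3 libraries (adjusted p = 0.171) and was 0.64 when scaled to the library sum. It also missed in 4 of the 6 fits with 1 library left out, those without shBUB3 or shFOXA1 replicate 1 or 2 (adjusted p from 0.055 to 0.104). These comparisons share libraries and are not independent.

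EZH2 siRNA lowered all 3 members, KLK3 most. KLK3 went from 1302, 1259.6 and 1379 FPKM to 236, 175 and 191 FPKM, a mean 6.55 times lower. Its log2 change of -2.72 ± 0.103 (limma, adjusted p = 4.3e-08) was the 7th lowest of 11908 genes tested. KLK2 went from 79.6, 70.6 and 87.3 FPKM to 20.6, 14.9 and 16.3 FPKM (-2.14 ± 0.117, adjusted p = 3.0e-07), the 35th lowest. KLK4 went from 47.9, 45.5 and 46.1 FPKM to 20.3, 21.1 and 23.8 FPKM (-1.07 ± 0.0753, adjusted p = 1.4e-06). No siEZH2 library reached the lowest control in any member, and siEZH2 was the group in which all 3 fell against their control. Across genes 43.0% were called lower and 20.3% higher. The luminal markers KRT8, KRT18, HOXB13 and FOLH1 summed were also lower, at 329.6 to 344 FPKM against 458 to 485 FPKM in siCtrl. The 4 fibroblast markers summed to 9.95 to 13.3 FPKM against 2.87 to 3.62 FPKM, although COL1A2 and DCN were at most 0.0841 in any library. The part of either marker list in the result was not tested.

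The siEZH2 effect was set against each knockdown of the first experiment, each taken against its own control in a joint fit of the FPKM table. For KLK4 the siEZH2 effect was lower than the shUSP7 effect by -2.03 ± 0.0814, than the shBUB3 effect by -1.19 and than the shFOXA1 effect by -2.34 (limma, adjusted p at most 3.0e-09). For KLK3 the differences were -0.85, -1.99 and -2.20 in the same order. KLK2 alone changed its place: siEZH2 lowered it less than shUSP7 did (difference 0.74 ± 0.143, adjusted p = 3.0e-04) but more than shBUB3 (-1.06) or shFOXA1 (-1.96) did. These 3 differences were called for 59.5%, 64.0% and 57.6% of all genes. EZH2 mRNA itself fell in all 4 knockdowns. Delivery and time differ between the experiments as well as the target, so these cannot be told apart.

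In the pGIPZ experiment, the shFoxA1 knockdown raised KLK4 and KLK2 and lowered KLK3 slightly. KLK4 rose from 110.1, 108 and 121 RPKM to 179, 175 and 172 RPKM (log2 change 0.63 ± 0.0396, limma adjusted p = 1.0e-07), 1.55 times the control mean. KLK2 rose from 107, 104 and 104 RPKM to 125, 128 and 118 RPKM (0.23 ± 0.0296, adjusted p = 4.7e-05). KLK3 fell from 1444, 1428 and 1435 RPKM to 1276, 1293 and 1269 RPKM (-0.17 ± 0.0152, adjusted p = 2.7e-06). Each shift was small for KLK2 and KLK3 but larger than the spread, with no overlap of libraries. Called genes made up 25.0% higher and 24.2% lower. The 4 immune markers summed to 32.3 to 35.0 RPKM against 12.7 to 14.8 RPKM in pGIPZ, with PTPRC and CD3E at most 0.276 in any library, and the 4 basal markers to 6.43 to 8.48 RPKM against 3.73 to 4.15 RPKM; their part in the result was not tested. The direction was shared with shFOXA1 of the first experiment for KLK4 and KLK3 and not for KLK2. The difference between the experiments was not tested, and their vectors and the units of their tables differ.

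Re-expressed FOXA1 lowered all 3 members relative to the knockdown. In shFoxA1 WT, KLK3 was 862, 888 and 875 RPKM, KLK2 was 78.7, 78.9 and 76.0 RPKM, and KLK4 was 139, 133 and 131 RPKM. The log2 changes against shFoxA1 were -0.55 ± 0.0152 for KLK3, -0.66 ± 0.0296 for KLK2 and -0.38 ± 0.0396 for KLK4 (limma, adjusted p at most 7.3e-06), where 18.9% of genes were called lower and 36.6% higher. This took KLK4 part of the way back to pGIPZ and took KLK2 from above pGIPZ to below it. KLK3 was already below pGIPZ after the knockdown and went further below it. Against pGIPZ, shFoxA1 WT had KLK3 lower by -0.71 and KLK2 lower by -0.43, with KLK4 still higher by 0.25, in a comparison where 45.5% of genes were called. With median-ratio scaling the KLK4 difference was 0.14 (adjusted p = 0.0159). KLK3 was the 254th lowest change of 12563 there, larger than its change after the knockdown alone.

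The K295A mutant gave nearly the wild-type values. KLK3 was 825, 834 and 839 RPKM, KLK2 was 71.8, 72.4 and 73.6 RPKM, and KLK4 was 131, 137 and 132 RPKM. Against shFoxA1, the log2 changes were -0.62 for KLK3, -0.76 for KLK2 and -0.39 for KLK4, where 18.3% of genes were called lower and 38.7% higher. Against pGIPZ they were -0.79, -0.53 and 0.24, where 50.5% were called, and median-ratio scaling brought the KLK4 value to 0.11. Between mutant and wild type, KLK3 differed by -0.07 ± 0.0152, KLK2 by -0.10 ± 0.0296 and KLK4 by -0.01 ± 0.0396. None passed (limma, adjusted p = 0.122, 0.25 and 0.945), in a comparison where 0.183% of genes were called. All K295A libraries lay below all wild-type libraries for KLK3 and KLK2 but not for KLK4. Such a separation of 3 against 3 libraries has a two-sided exact permutation p of 0.1 for any 1 gene. The share of all genes separated this way is not given here. With scaling to the library sum KLK3 passed at -0.09 (limma, adjusted p = 0.0184). The missed threshold does not show that mutant and wild type act alike.

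The balance between the members, taken within each library, does not depend on how libraries are scaled. KLK3 was 11.9, 12.2 and 12.4 times KLK4 in pLKO but 1.60, 1.61 and 1.88 times KLK4 in shUSP7. It was 3.41, 3.55 and 3.47 times KLK4 in shFOXA1 and 6.07, 6.71 and 7.35 times in shBUB3. In every perturbed group KLK4 gained on KLK3: the mean ratio of KLK3 to KLK4 went from 28.3 to 9.30 with siEZH2, and from 12.7 in pGIPZ to 7.30 in shFoxA1, 6.51 in shFoxA1 WT and 6.25 in shFoxA1 K295A. On the log2 scale of value + 1, the ratio of KLK4 to KLK3 shifted by 0.80 to 2.83, most in shUSP7. KLK2 against KLK3 did not go one way. KLK3 stood 20.9 times above KLK2 in shUSP7 and 12.5 times in shBUB3 against 9.74 times in pLKO, so that KLK2 lost more than KLK3. It stood 7.71 times above KLK2 in shFOXA1 against the same control, and 11.6 times in siEZH2 against 16.7 times in siCtrl, so that KLK2 lost less. In the pGIPZ experiment the ratio went from 13.7 to between 10.3 and 11.5. For all 14 of these ratio comparisons the groups did not overlap. The two-sided exact permutation p was 0.1, also after Benjamini-Hochberg adjustment, which is the smallest that 3 against 3 libraries allow. The share of all gene pairs separated this way is not given here. Of single genes, 45.5% to 70.3% were called in these comparisons, so a separated ratio may be common.

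**Figure D2:**
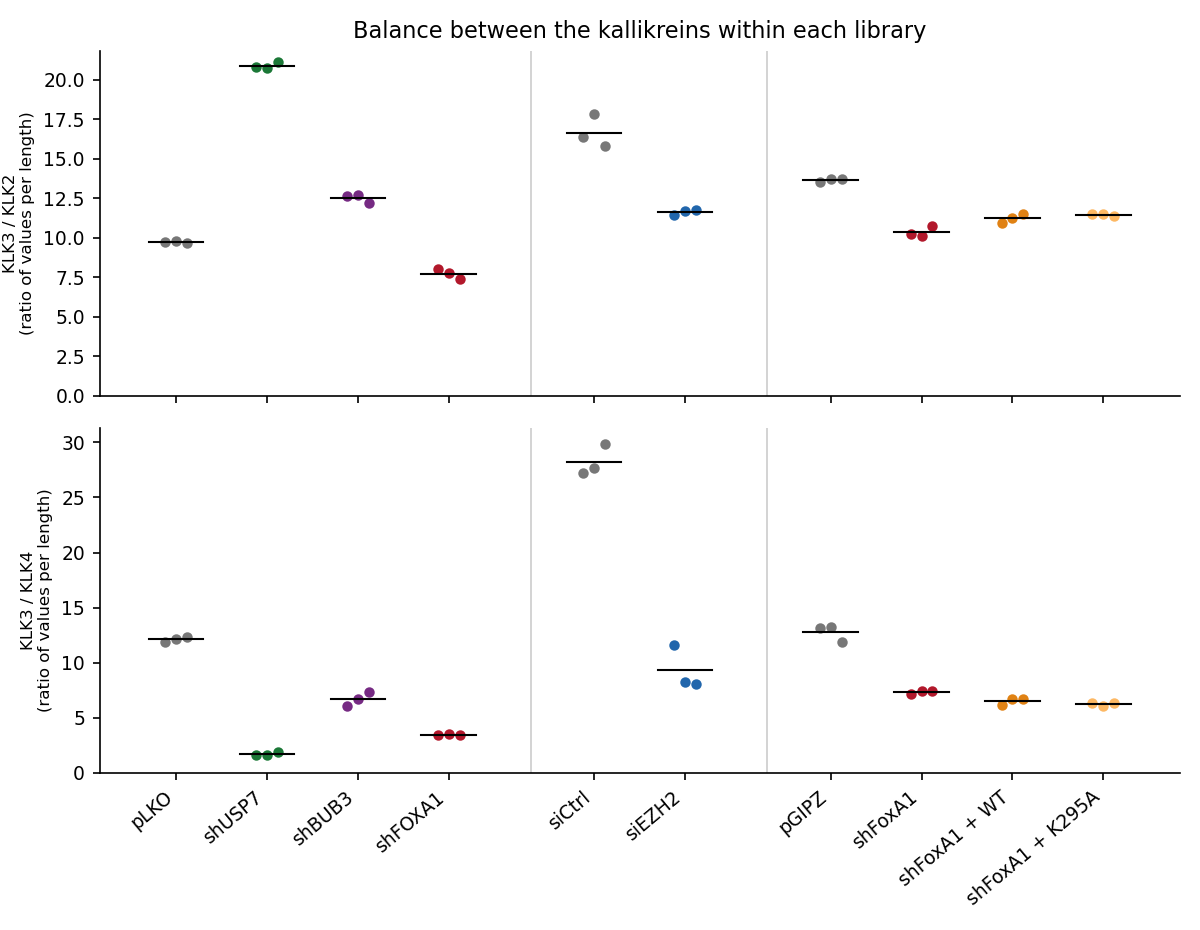
Ratio of KLK3 to KLK2 (top) and of KLK3 to KLK4 (bottom), both as values per length, in each library; points are libraries and lines are group means. The ratio to KLK4 is lower in every perturbed group than in its control, with 1.70 in shUSP7 against 12.1 in pLKO, while the ratio to KLK2 is higher in shUSP7 and shBUB3 and lower in the other groups.

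The other kallikreins gave little signal. Of 13 others, 10 (KLK1 and KLK5 to KLK13) stayed below 1 in all 30 libraries, with KLK1 the highest at 0.810, and KLK14 reached 1 in 4 libraries. KLK15, which lies on the far side of KLK3, and the pseudogene KLKP1 passed the filter in every experiment. KLK15 fell from 2.54, 2.58 and 3.19 FPKM in pLKO to 0.755, 0.648 and 0.461 FPKM in shUSP7 (log2 change -1.22, limma adjusted p = 4.2e-07). It also fell after shBUB3 (-0.44) and siEZH2 (-0.77), while its differences after shFOXA1 (0.11) and shFoxA1 (-0.24) did not pass, the first of them passing with median-ratio scaling (0.24, adjusted p = 0.0373). KLKP1 rose from 5.62, 7.08 and 7.46 FPKM in pLKO to 14.1, 12.9 and 16.2 FPKM in shFOXA1 (1.00, adjusted p = 1.9e-06) and rose after shFoxA1 (0.38). It fell after shUSP7 (-0.32), shBUB3 (-0.46) and siEZH2 (-1.61), and with both re-expressed forms against shFoxA1 (-0.51 and -0.39). The fall after shUSP7 missed the threshold without pLKO replicate 3 (-0.25, limma adjusted p = 0.0539). In shUSP7 KLKP1 did not share the rise of KLK4, its neighbour.

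**Figure D3:**
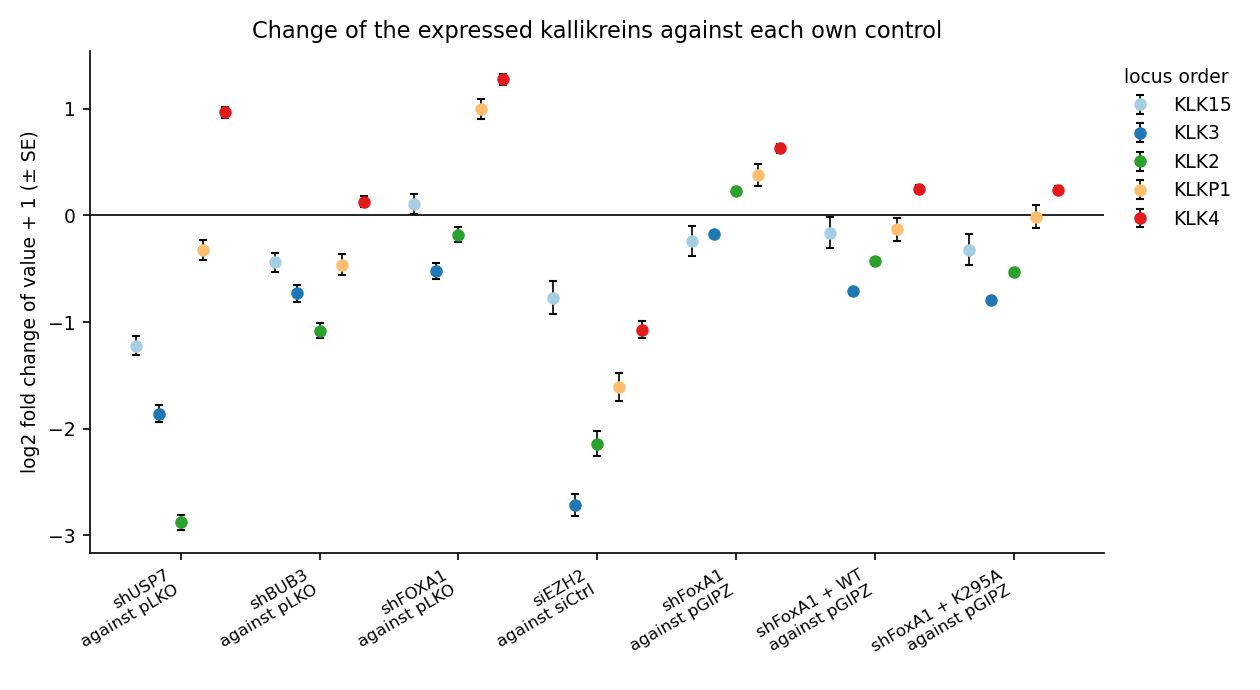
Log2 fold change of value + 1 (± SE, limma) of the 5 kallikrein genes that passed the filter in every experiment, each group against its own control; colours follow the order of the genes on the chromosome. KLK4 is above 0 in all comparisons but siEZH2, where all 5 genes are below 0.

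Genes flanking the cluster were read from a list of 15, of which 6 passed the filter. C19orf48, whose midpoint lies 53.6 kb before the KLK3 start and which hosts a small nucleolar RNA, fell with KLK2 and KLK3 after shUSP7 (-0.99), shBUB3 (-0.68) and siEZH2 (-0.96). Its mean went from 134 FPKM in pLKO to 66.8 FPKM in shUSP7. After shFOXA1 its difference of -0.18 did not pass (limma, adjusted p = 0.0855). JOSD2, a deubiquitinase gene farther out, went up after shBUB3 (1.08) and down after siEZH2 (-0.48) and shFOXA1 (-0.53), the last missing the threshold with median-ratio scaling (-0.37, limma adjusted p = 0.0553). Of the 6, 3 fell and 0 rose after shUSP7, 1 fell and 2 rose after shBUB3, 1 fell and 0 rose after shFOXA1, and 4 fell and 1 rose after siEZH2. Over all genes tested, 33.0%, 32.0%, 45.1% and 43.0% were called lower in these comparisons and 29.1%, 33.3%, 25.2% and 20.3% higher. Medians were -0.42, 0.20, -0.16 and -0.35, beside -0.02, 0.01, -0.15 and -0.16 over all genes tested.

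**Figure D4:**
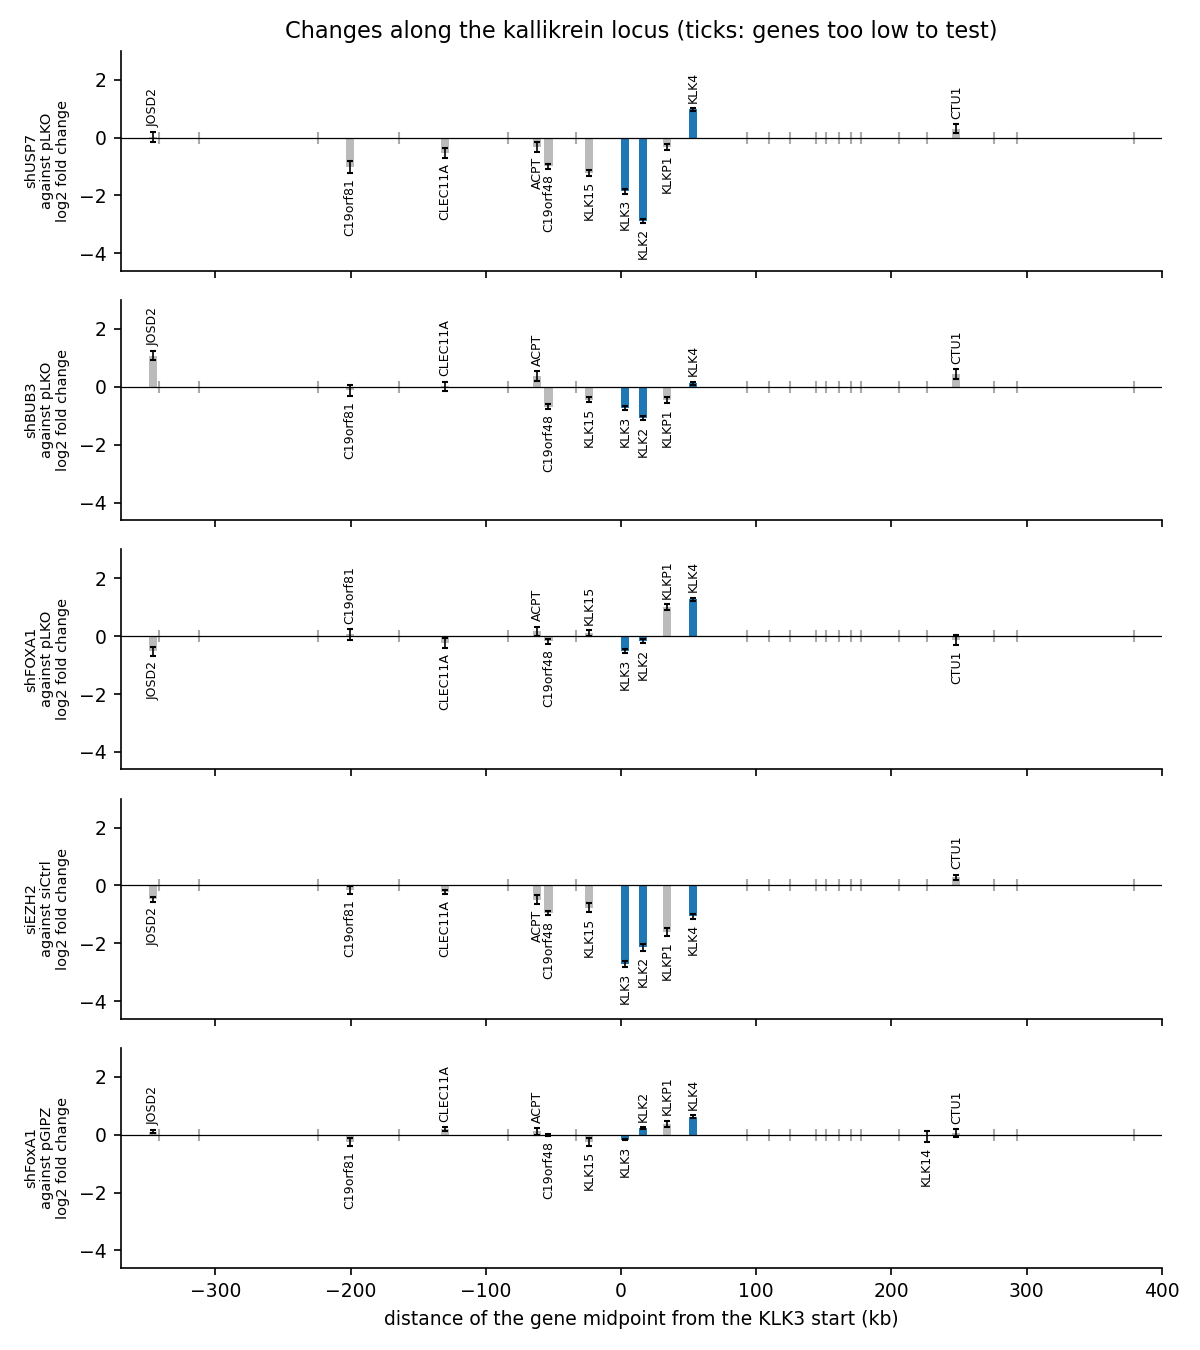
Log2 fold change of value + 1 (± SE) of genes along the kallikrein locus, by distance of the gene midpoint from the KLK3 start in kb, for 5 knockdowns against their own control; blue bars are KLK3, KLK2 and KLK4, grey bars are other genes and ticks are genes too low to test. In shUSP7 the bars run down to -2.88 at KLK2 and up to 0.97 at KLK4.

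Transcription factors, cofactors and chaperones known from prostate cells, FOXA1 included, were a list of 22 genes, 19 of them tested. After shUSP7, 8 fell and 6 rose; after shBUB3, 7 fell and 3 rose; after shFOXA1, 7 fell and 5 rose; after siEZH2, 11 fell and 4 rose. The shares of all genes called lower were 33.0%, 32.0%, 45.1% and 43.0%, and those called higher 29.1%, 33.3%, 25.2% and 20.3%. HOXB13, a prostate homeobox factor, fell by 0.55 to 0.67 after shUSP7, shBUB3, shFOXA1 and siEZH2, less than KLK3 in shUSP7 and siEZH2. ETV1, an ETS factor, fell after shUSP7 (-1.68) and shBUB3 (-1.83). After shFOXA1 the mediator subunit MED1 fell (-1.52) and the chaperone HSP90AA1 rose (1.05). After siEZH2 the cochaperone FKBP4 fell by 1.37 and SMARCA4, a chromatin remodelling ATPase, by 1.05. After shFoxA1, 16 of the 19 rose, where 25.0% of all genes were called higher, and the 1 that fell was FOXA1, the target. The epithelial factor GRHL2 (1.48) and the corepressor NCOR1 (1.07) were among those that rose. Both of these fell again with wild-type FOXA1 (-1.34 and -0.85). The list's median log2 change was 0.08 after shUSP7, -0.13 after shBUB3, -0.05 after shFOXA1, -0.33 after siEZH2 and 0.27 after shFoxA1, beside -0.02, 0.01, -0.15, -0.16 and 0.00 over all genes tested.

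Androgen-induced genes outside the kallikreins were a list of 36, with 34 tested. They fell in 23 and rose in 6 cases after shUSP7 (median log2 change -0.48), and fell in 25 and rose in 2 after shBUB3 (-0.69). After shFOXA1, 22 fell and 8 rose (-0.47), and after siEZH2, 30 fell and 1 rose (-1.30). Over all genes tested, 33.0%, 32.0%, 45.1% and 43.0% were called lower in these 4 comparisons, with medians of -0.02, 0.01, -0.15 and -0.16. KLK3 and KLK2 thus lay below the list's median after shUSP7 and siEZH2, while KLK3 lay close to it after shBUB3 and shFOXA1. KLK4 lay above the median in each of the 4. SLC45A3, which encodes prostein, fell by 4.41 after shFOXA1, far more than any member. TMPRSS2, a membrane serine protease, fell by 2.59 after siEZH2 beside KLK3. Among those that rose were RHOU after shUSP7 (2.58) and SGK1 after shFOXA1 (2.51) and shFoxA1 (3.22). After shFoxA1 the list split into 15 that rose and 16 that fell (-0.06), beside 25.0% of all genes called higher and 24.2% lower, and with wild-type FOXA1 21 rose and 10 fell against shFoxA1 (0.36), beside 36.6% and 18.9% of all genes. There KLK2, KLK3 and KLK4 all fell.

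Among 21 substrates, receptors and inhibitors of kallikreins, 5 to 7 passed the filter in an experiment. IGFBP3, an insulin-like growth factor binding protein that PSA cleaves, rose after each knockdown: from 1.82 to 14.9 FPKM in shUSP7 (2.50), by 0.50 in shBUB3, to 53.1 FPKM in shFOXA1 (4.26), and from 2.44 to 145 FPKM with siEZH2 (5.38). It rose after shFoxA1 (1.87) and was below pGIPZ with wild-type FOXA1 (-0.80), where KLK3 was also below it. FN1, which encodes fibronectin, a matrix protein cleaved by kallikreins, fell after shBUB3 (-3.05) and rose after siEZH2 (2.16). The protease inhibitor SERPINA3, which binds PSA in blood, rose after shFoxA1 from 0.333 to 6.46 RPKM (2.49). Of 14 secreted luminal products, 10 were tested in the first experiments; 8 fell and 1 rose after shUSP7, 9 fell and 1 rose after shBUB3, 7 fell and 2 rose after shFOXA1, and 9 fell and 0 rose after siEZH2. Their median log2 changes were -0.72, -0.89, -0.91 and -0.89, beside -0.02, 0.01, -0.15 and -0.16 over all genes, of which 33.0%, 32.0%, 45.1% and 43.0% were called lower. After shFoxA1, 8 of 11 tested fell and 3 rose (median log2 change -0.61), where 24.2% of all genes were called lower and 25.0% higher. Against pGIPZ, 8 fell and 0 rose with wild-type FOXA1 (-0.26) and with K295A (-0.36). There 11.8% and 12.8% of all genes were called lower, and 33.7% and 37.8% higher. AGR2, a protein disulfide isomerase family member, fell by 2.72 after shUSP7, close to KLK2. CLU, which encodes the chaperone clusterin, rose after shBUB3 (3.05) and shFOXA1 (2.57).

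Patterns over the 30 libraries were compared by Pearson r of log2 values centred within each experiment, as a description over 11545 genes kept in all experiments. Libraries of a group share their treatment, so the points are not independent. KLK2 and KLK3 had r = 0.918 with each other, and KLK4 had 0.138 with KLK2 and 0.208 with KLK3. The genes most like KLK2 were DHRS2 (0.960), ZDHHC20 (0.955), MAP3K6 (0.947), GGT1 (0.939) and P4HA1 (0.929). Those most like KLK3 were LIMCH1 (0.937), GGT1 (0.930), ARSG (0.910), SSR3 (0.904) and DHRS2 (0.902), so that DHRS2 and GGT1 stood in both lists. KLK4 was most like NCKIPSD (0.943), FRMPD1 (0.937), HEXIM1 (0.929), LPCAT3 (0.921) and DUSP3 (0.904), none of which was in the lists of the other members. Within the cluster, KLK15 was nearer to KLK2 (0.889) than to KLK3 (0.779) or KLK4 (0.108), and KLKP1 had 0.747 with KLK4, 0.707 with KLK2 and 0.693 with KLK3.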

How the data were processed

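RNA-seq libraries of LNCaP cells were aligned to hg38 with STAR, per the submitters' processing notes; its version, the counter and the annotation were not given in the sources used here. The library kit was NEBNext Ultra, per the labels' protocols. Values deposited by the authors are FPKM in one table (pLKO and siRNA experiments) and RPKM in another (pGIPZ experiment), as the names of the deposited tables give the unit. Both are normalized, so read depth is unknown and no counting interval is given. The relative depth read from the steps of low values ran from 0.602 to 1.30 (FPKM table) and from 0.847 to 1.30 (RPKM table).

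Members and gene lists were chosen with earlier results of these data known. Genes that reached 1 in 3 or more libraries of an experiment were tested with limma 3.58.1 (R 4.3.3) on log2(value + 1), which understates changes of low genes, with one fit per experiment and a joint fit of the FPKM table for differences of effects. P-values were two-sided and adjusted by Benjamini-Hochberg over all genes tested, with a threshold of 0.05 for a call. Within-library log2 ratios were compared by exact permutation. The named genes were the members, the targeted genes, up to 3 called genes per list and comparison with the largest change and no overlap between groups, and the 5 genes most like each member; HOXB13, C19orf48 after shFOXA1 and IGFBP3 after shBUB3 fall outside this rule and were chosen after their values were seen. Some genes that the rule or the lists would hold are not reported here. Scripts were tested on simulated data. Alternatives were another pseudocount (0.1), no filter, median-ratio scaling, scaling to the library sum, fits of the compared groups alone, a replicate block and leaving out each library. The differences of effects between siEZH2 and the knockdowns were refit only with the other pseudocount and with median-ratio scaling.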

Additional observations from a re-analysis of the deposited data

Results flagged for a closer look

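KLK2 went in opposite directions after the FOXA1 knockdowns of 2 experiments: its log2 change was -0.18 for shFOXA1 against pLKO, with all 3 libraries below all controls, and 0.23 for shFoxA1 against pGIPZ, with all 3 above. The first of these was -0.00 with median-ratio scaling and turned to 0.05 with scaling to the library sum. It also missed the threshold in 6 of 6 fits with 1 library left out. The difference between the experiments was not tested, and the vectors and the units of the tables differ. FOXA1 itself fell by 0.96 in the first and by 0.67 in the second.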

How the results depend on the processing

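For KLK2, KLK3 and KLK4, 238 of 249 values under other settings and 220 of 234 with 1 library left out kept their side of the threshold and their direction, except KLK4 in shFoxA1 K295A against shFoxA1 WT, which went from -0.01 to 0.01 without shFoxA1 WT replicate 1 and passed in neither. KLK4 after shBUB3 turned to -0.07 with scaling to the library sum and missed the threshold in a fit of those groups alone (0.13, limma adjusted p = 0.139), with median-ratio scaling (0.07) and with the replicate block (0.13, adjusted p = 0.056); it ran from 0.10 to 0.16 with 1 library left out, missing in 4 of 6 such fits. KLK2 after shFOXA1 turned to 0.05 with scaling to the library sum, was -0.00 with median-ratio scaling (adjusted p = 0.968), missed without the filter (-0.18, adjusted p = 0.0509) and ran from -0.20 to -0.14 with 1 library left out, missing in 6 of 6. KLK3 in shFOXA1 against shBUB3 missed in a fit of those groups alone and without the filter (0.21 in both) and ran from 0.17 to 0.28 with 1 library left out, missing in 4 of 6. KLK3 in shFoxA1 K295A against shFoxA1 WT passed with median-ratio scaling and with scaling to the library sum (-0.09 in both). The 23 genes called there became 6 in a fit of those groups alone, 11 without the filter, 14 with the replicate block, 36 with scaling to the library sum, and 9 to 18 with 1 library left out. The log2 ratio of KLK2 to KLK3 after shUSP7 was -1.10 without a pseudocount. The cause of these changes was not tested.

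C19orf48 in shFoxA1 WT against pGIPZ turned to -0.01 with median-ratio scaling. With that scaling the median gene shifted by 0.144 for shFOXA1, 0.177 for siEZH2 and -0.107 for shFoxA1 K295A against pGIPZ. Replicate numbers did not pair the samples: 2 of 18 same-numbered pairs in the pLKO experiment, 0 of 3 in the siRNA experiment and 0 of 18 in the pGIPZ experiment had a correlation over 0.1. The replicate block changed no other call among KLK2, KLK3 and KLK4. Read depth is unknown, so the counting precision of the low kallikreins cannot be given.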
